A study of Mus musculus with 16 samples.

Results

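The genes described here are 10 transcription regulators of blood progenitors, listed by name: the Ikaros family genes Ikzf1, Ikzf2, Ikzf3 and Ikzf5, the zinc finger gene Bcl11a, the Runx factors Runx1, Runx2 and Runx3 with their shared partner Cbfb, and Myb. All 10 of the names matched 1 identifier each among the 47937 in the count table, and 9 passed the filter on low counts (a mean above 100 counts in any group), the exception being Ikzf3. They were measured by bulk RNA sequencing of MPP3 and MPP4 cells, the myeloid-biased and lymphoid-biased multipotent progenitors of mouse bone marrow, in 16 libraries from 8 mice (C57BL/6 in the labels, C57BL/6J in the study's methods). Each mouse gave 1 library of each population, and 4 mice were labelled WT and 4 labelled KO for Ebf1, which encodes a factor that commits progenitors to the B cell fate. MPP3 cells were sorted as lineage-negative, Sca1-positive, Kit-positive (LSK) CD150- CD48+ cells, and MPP4 cells by the same markers plus Flt3.

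Every mouse carried Ebf1fl/fl alleles according to the sample labels, with the genotype Tie2Cre+/+ (read here as no Cre) for WT and Tie2Cre +/cre for KO. The series text instead places Tie2Cre in both groups and unfloxed Ebf1 in WT, and the allele and the transgene cannot be told apart from gene counts. Tie2Cre acts in endothelial cells as well as in blood stem cells, so both compartments of the KO mice were targeted. By replicate number, the ages in weeks were 12, 11, 12 and 11 for WT and 10, 9, 11 and 11 for KO. Mice WT1, WT2, KO3 and KO4 were female and the other mice male.

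As background, Ikaros family proteins bind DNA through zinc fingers, pair with each other through a separate set of fingers, and recruit chromatin remodelling complexes. Ikaros (Ikzf1) is required for lymphoid development, Helios (Ikzf2) is known from stem cells and T cells, Aiolos (Ikzf3) from maturing B cells, and Pegasus (Ikzf5) is the most divergent of the 4. Runx proteins bind DNA as heterodimers with Cbfb, which does not contact DNA itself. Bcl11a is needed for B cell and plasmacytoid dendritic cell development and silences fetal globin genes, and Myb sustains proliferation and self-renewal of progenitors.

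A promoter window of each of the 3 Runx genes holds a short shared sequence, shown here because it sets these windows apart by sequence. RefSeq promoter windows (GRCm38.p6, 250 bases before to 50 after an annotated start) were found for 8 of the 10 genes, 11 windows in all, and none for Ikzf2 and Ikzf3. The RUNX motif ACCACA, searched on both strands, lay in 3 of the 11 windows (16.8% of all 32851 windows), 1 each of Runx1, Runx2 and Runx3. In each of these 3 it occurred as a tandem pair with 2 bases between the copies, and the Runx2 window held 1 further copy. Runx1 and Runx3 each had 2 windows, and the other window of each held no copy. Only 7 of all windows (0.0213%) held that tandem pair, a pattern chosen after the sequences were seen. The 30 bases around each pair are given 5′ to 3′ on the strand of the gene, with the RUNX motif copies in capitals.
Runx1: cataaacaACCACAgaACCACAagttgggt
Runx2: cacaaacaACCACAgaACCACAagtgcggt
Runx3: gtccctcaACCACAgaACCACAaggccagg
The Runx1 stretch lay at chr16:92826025-92826054 on the minus strand, with the pair beginning 28 bases downstream of the start. That of Runx2 lay at chr17:44814583-44814612 on the minus strand, 23 bases downstream of its start, and that of Runx3 at chr4:135120503-135120532 on the plus strand, 134 bases upstream of its start. An unbroken run of 18 bases was identical in all 3. The core Ikaros motif TGGGAA was present in the Bcl11a window and in the same Runx3 window (25.6% of all windows), and an EBF1-type palindrome, TCCC and GGGA with 2 bases between them, in none of the 11 (0.904% of all windows). These are matches of letters and say nothing of binding.

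Libraries held between 24823708 and 48703193 counts, and a count of 3, the limit that a count of 0 allows, corresponded to between 0.0619 and 0.118 CPM (counts scaled to the TMM-normalised library size, the unit of all levels here). This limit covers counting error only. The targeted gene went against its label in MPP4: Ebf1 had 98 to 263 counts in the libraries labelled WT and 488 to 928 in the libraries labelled KO, while its MPP3 counts were 5 to 91 and 6 to 84. Gene counts do not separate intact from recombined Ebf1 transcripts, so KO below means the libraries labelled KO. The sort markers Flt3 and Slamf1 (CD150) followed the gates. Flt3 was at 1164 to 1362 CPM in MPP4 WT and 256 to 313 CPM in MPP3 WT, and Slamf1 at no more than 3.49 CPM in any library. The markers shared by both gates were not alike: Kit and Cd48 had higher means in MPP3 WT (779 and 324 CPM) than in MPP4 WT (547 and 243 CPM). Ly6a (Sca1) was lower in MPP3 WT, at 30.3 against 49.3 CPM. Summed markers of other cells differed between the populations: neutrophil genes reached 480 to 2107 CPM in MPP3 and 15.5 to 60.3 CPM in MPP4, mast cell and basophil genes 168 to 383 and 19.2 to 36.4 CPM, and erythroid and megakaryocyte genes 105 to 173 and 21.2 to 69.2 CPM. In MPP3 WT the neutrophil sum was mainly Elane (mean of 799 CPM), while S100a8, S100a9, Ltf, Ngp and Camp had means of 12.8 CPM or less. Cpa3 (198 CPM) likewise led the mast cell and basophil sum there, and Itga2b (106 CPM) the erythroid and megakaryocyte sum. Of the 6 mast cell and basophil genes, Cma1 and Gzmb had at most 3 counts in every MPP4 library. Genes of T, NK and innate lymphoid cells summed to 471 to 698 CPM in MPP3 and 260 to 450 CPM in MPP4. Nkg7 made up most of that sum (means of 502 CPM in MPP3 WT and 277 CPM in MPP4 WT), Cd3d, Cd3e, Cd3g, Trac and Ncr1 were at no more than 2.99 CPM in any library, and Klrb1c was at 2.29 CPM in MPP3 WT and 2.58 CPM in MPP4 WT. The sums of mature B cell genes were alike in the populations, at 67.9 to 84.6 and 75.3 to 92.8 CPM. The sum of 6 dendritic cell genes went the other way, with 208 to 316 CPM in MPP3 and 955 to 1385 CPM in MPP4. Most of that sum was the sort marker Flt3, but Ccr9 was also at 0.774 CPM in MPP3 WT and 14.0 CPM in MPP4 WT on average, and Itgax ranged over 0.867 to 1.34 CPM and 2.86 to 5.71 CPM in the same groups. Siglech, a marker of plasmacytoid dendritic cells, reached at most 0.670 CPM in MPP3 and 3.96 CPM in MPP4. Xcr1 and Cd209a were alike in MPP3 WT (means of 0.343 and 0.251 CPM) and MPP4 WT (0.355 and 0.233 CPM). Their part in the population differences was not tested, and fewer cells of a type and less RNA per cell cannot be told apart in such bulk samples.

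Levels were compared between genes per length, as CPM per kilobase (kb) of merged annotated exons. Ikzf1 was the most abundant member in 3 of the 4 groups, at 37.5 ± 7.69 CPM per kb in MPP3 WT, 56.2 ± 12.7 in MPP4 WT and 58.0 ± 7.70 in MPP4 KO (SD, n = 4). In MPP3 KO, Myb stood first at 41.6 ± 5.76 CPM per kb and Ikzf1 second at 37.6 ± 4.15, a gap within their spread. Myb and Cbfb held the places beside Ikzf1, and within MPP3 the ranges of the 3 genes overlapped in both genotypes. Runx3, Runx1, Bcl11a and Runx2 formed a middle group between 6.45 and 17.6 CPM per kb in all 16 libraries, in which neighbours in the order mostly overlapped. Ikzf2 lay with them in MPP3 (8.47 ± 1.18 in WT) and lower in MPP4 (4.98 ± 0.968 in WT). Ikzf5 was at 0.635 to 1.06 CPM per kb and Ikzf3 at no more than 0.231 CPM per kb.

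**Figure D1:**
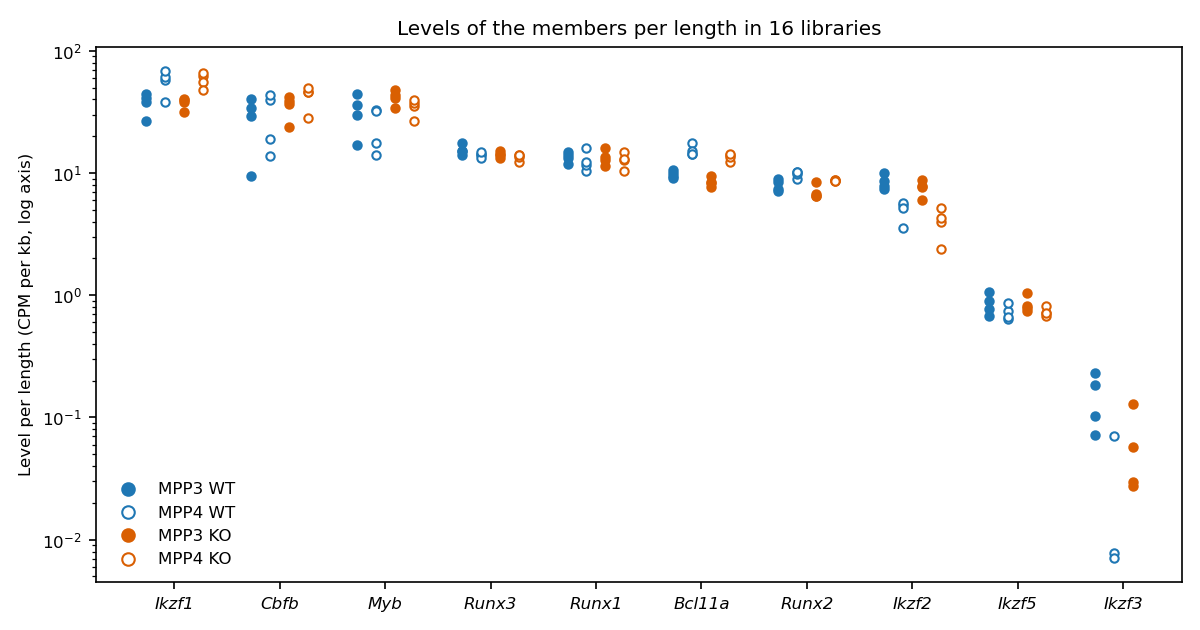
Level per length (CPM per kb, log axis) of each member in 16 libraries, 1 point per library, with MPP3 filled and MPP4 open, WT blue and KO orange. Ikzf1, Cbfb and Myb stand highest and Ikzf3 lowest, and the 5 Ikzf3 libraries at 0 counts are not drawn.

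The comparison of MPP3 with MPP4 asked which of these regulators differ between the myeloid-biased and the lymphoid-biased progenitors. In WT, 4 of the 9 tested members differed (edgeR quasi-likelihood test, FDR under 0.1 over 11831 genes): Ikzf2 was higher in MPP3, and Ikzf1, Bcl11a and Runx2 were lower. The median log2 fold change of the 9 was 0.11, against -0.00039 over all genes. Across all genes tested in WT, 6.80% were called higher in MPP3 and 8.33% lower. The libraries of the 2 populations did not overlap for Ikzf2 on the higher side (7.60% of all genes) and for Bcl11a and Runx2 on the lower side (8.27%). In KO the same 4 genes were called in the same directions, where 8.71% of all genes were called higher and 9.18% lower. There the groups of all 4 genes were apart, against 8.60% of all genes on the higher side and 8.60% on the lower. Taking the mouse as a block, which fits the pairs of libraries from the same animal, added Myb to the genes higher in MPP3 in both genotypes. In the blocked fit 11.3% of all genes were called higher and 13.4% lower in WT, and 13.8% and 14.5% in KO.

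**Figure D2:**
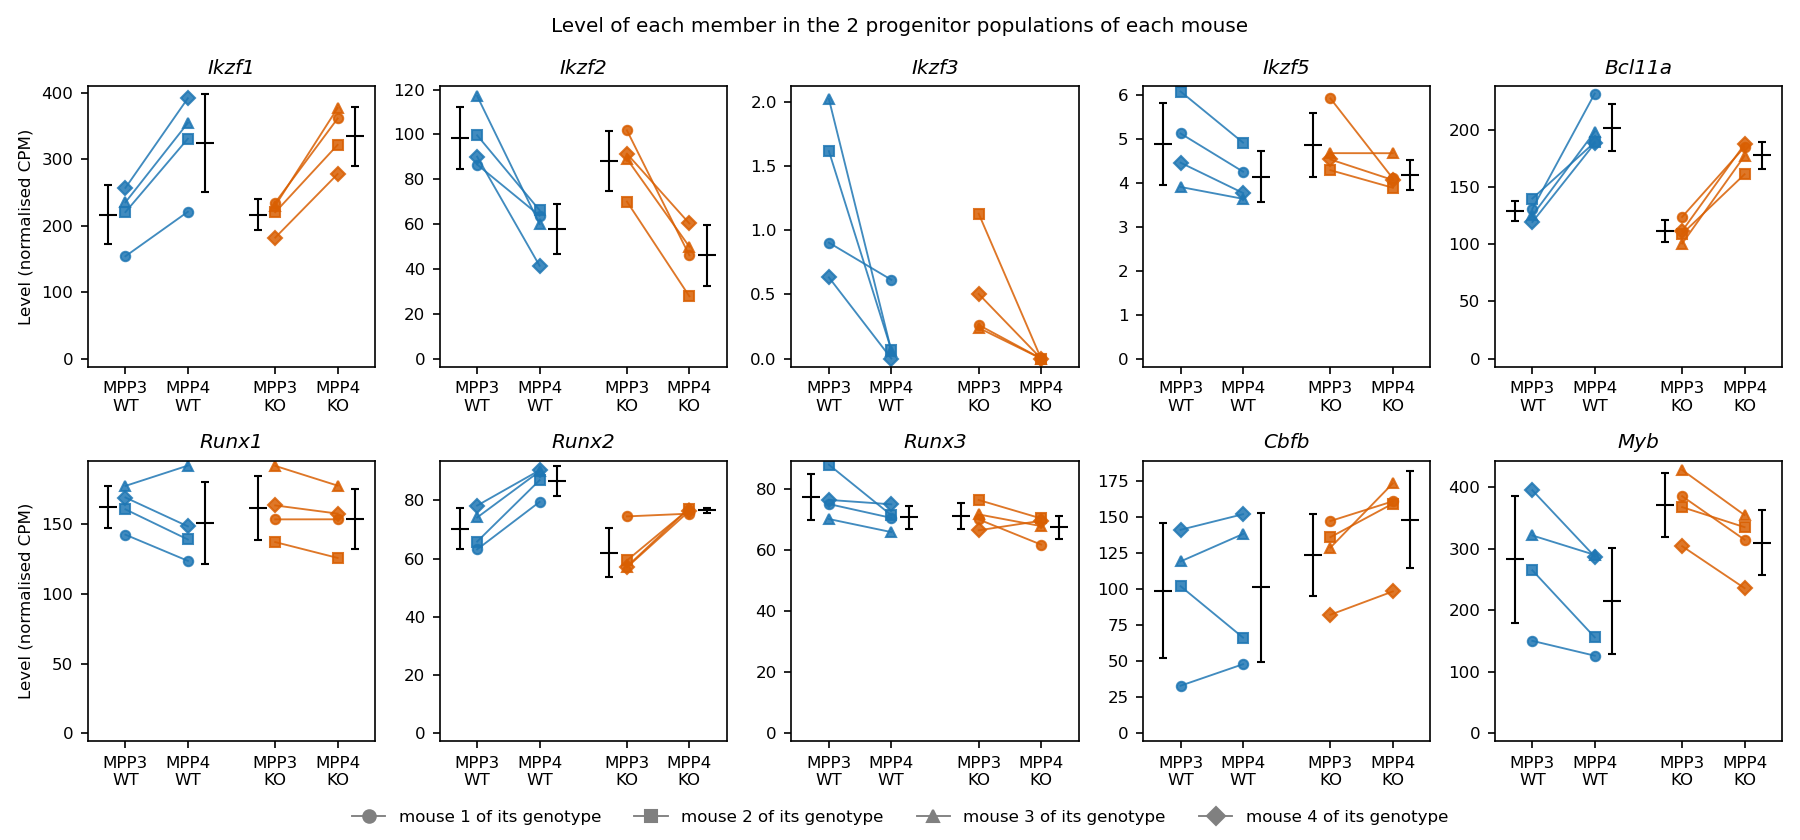
Normalised CPM of the 10 members, with lines joining the MPP3 and MPP4 libraries of 1 mouse (WT blue, KO orange, marker shape for the replicate number) and black bars for the mean ± SD of 4 libraries (not drawn for Ikzf3, which is at 0 in 5 libraries). The lines of Ikzf1 and Bcl11a rise from MPP3 to MPP4 in 8 of 8 mice and those of Ikzf2 and Myb fall in 8 of 8.

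Ikzf1 (ENSMUSG00000018654, chromosome 11, 11685003 to 11772926, plus strand), which encodes Ikaros, stood at 154, 221, 235 and 257 CPM in the MPP3 WT libraries and at 221, 331, 355 and 392 CPM in the MPP4 WT libraries, in the order of the mice. These groups overlapped only through mouse WT1, the lowest in both populations. In KO it was at 235, 220, 230 and 182 CPM in MPP3 and at 362, 322, 378 and 278 CPM in MPP4, with no overlap. MPP3 was lower than MPP4 by a log2 fold change of -0.58 ± 0.17 in WT (SE, edgeR FDR 0.0319) and -0.63 ± 0.17 in KO (FDR 0.0187). The difference was alike in every animal although the level was not: the log2 ratio of MPP3 to MPP4 lay between -0.71 and -0.52 in the 8 mice, with an SD of 0.057. The WT call was lost without MPP4 WT replicate 4 (edgeR FDR 0.112), and the KO call held without any 1 library.

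Ikzf2 (ENSMUSG00000025997, chromosome 1, 69531214 to 69687245, minus strand) moved the other way. Helios transcripts were at 86.6, 99.6, 117 and 90.1 CPM in MPP3 WT and at 63.7, 66.2, 60.0 and 41.4 CPM in MPP4 WT, so the groups did not overlap. In KO the MPP3 libraries held 102, 70.0, 89.1 and 91.4 CPM and the MPP4 libraries 46.1, 27.8, 49.9 and 60.3 CPM. The log2 fold change of MPP3 over MPP4 was 0.77 ± 0.20 in WT (edgeR FDR 0.0161) and 0.94 ± 0.20 in KO (FDR 0.00348), and the call held without any 1 library in both genotypes. Unlike for Ikzf1, the size varied between mice, from 0.44 in WT1 to 1.33 in KO2. As a result of the opposite directions, Ikzf1 exceeded Ikzf2 per length by 3.58 to 6.32 times in the 8 MPP3 libraries and by 6.97 to 23.3 times in the 8 MPP4 libraries. Ikzf1 made up 75.9% to 84.7% of the summed level per length of the 4 family genes in MPP3 and 85.9% to 94.8% in MPP4.

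Ikzf3 (ENSMUSG00000018168, chromosome 11, 98464902 to 98546031, minus strand), encoding Aiolos, was low in MPP3 and near the limit of detection in every MPP4 library but that of WT1. It was not tested with the other members. The MPP3 WT libraries held 30, 41, 84 and 25 Ikzf3 counts, those of MPP3 KO 10, 34, 9 and 20, and those of MPP4 WT 26, 2, 3 and 0. No count fell in the 4 MPP4 KO libraries, which allows a level of up to 0.0221 CPM over the group. Pooled over its libraries, MPP3 KO stood at 0.501 CPM and was at least 22.6-fold higher than MPP4 KO, taking 3 counts over the group as the floor. In the fit of all genes with at least 1 count, Ikzf3 was called higher in MPP3 in KO (edgeR FDR 0.00897), where 3.51% of those genes were, a call that rests on a group with no count. It did not pass the threshold in WT (FDR 0.177), nor did KO against WT in MPP4 (FDR 0.341). The 8 plasma cell genes read beside it did not move together. Igkc was at 67.6 to 381 CPM in MPP3 WT, at 0 to 61.2 CPM in MPP3 KO and at no more than 17.4 CPM in MPP4, and Jchain was likewise highest in MPP3 WT (34.5 to 133 CPM). Sdc1 went the other way, at 4.33 to 11.6 CPM in MPP3 WT and 64.2 to 142 CPM in MPP4 WT, and Xbp1 was at 134 to 341 CPM over the 4 groups. Mzb1, Irf4, Prdm1 and Tnfrsf17 were at no more than 4.62 CPM in any library, with Irf4 at 0 in all MPP3 KO libraries. The sum of the 8 was 269 to 760 CPM in MPP3 WT, 180 to 404 in MPP3 KO, 210 to 377 in MPP4 WT and 188 to 384 in MPP4 KO, and its part in the Ikzf3 counts was not tested.

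Ikzf5 (ENSMUSG00000040167, chromosome 7, 131388652 to 131410521, minus strand) was low, at 3.90 to 6.07 CPM in MPP3 and 3.63 to 4.91 CPM in MPP4. It was higher in MPP3 in all 8 mice, by 0.00052 to 0.53 on the log2 scale, but the fitted log2 fold changes of 0.24 ± 0.20 in WT and 0.22 ± 0.20 in KO did not pass the test (edgeR FDR 0.572 and 0.586). Of its 5721 exon bases, 4835 overlap exons of 2 antisense genes, Pstk and Gm44624. Whether strand was used in counting is not given in the sources used here, so the Ikzf5 counts are uncertain.

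**Figure D3:**
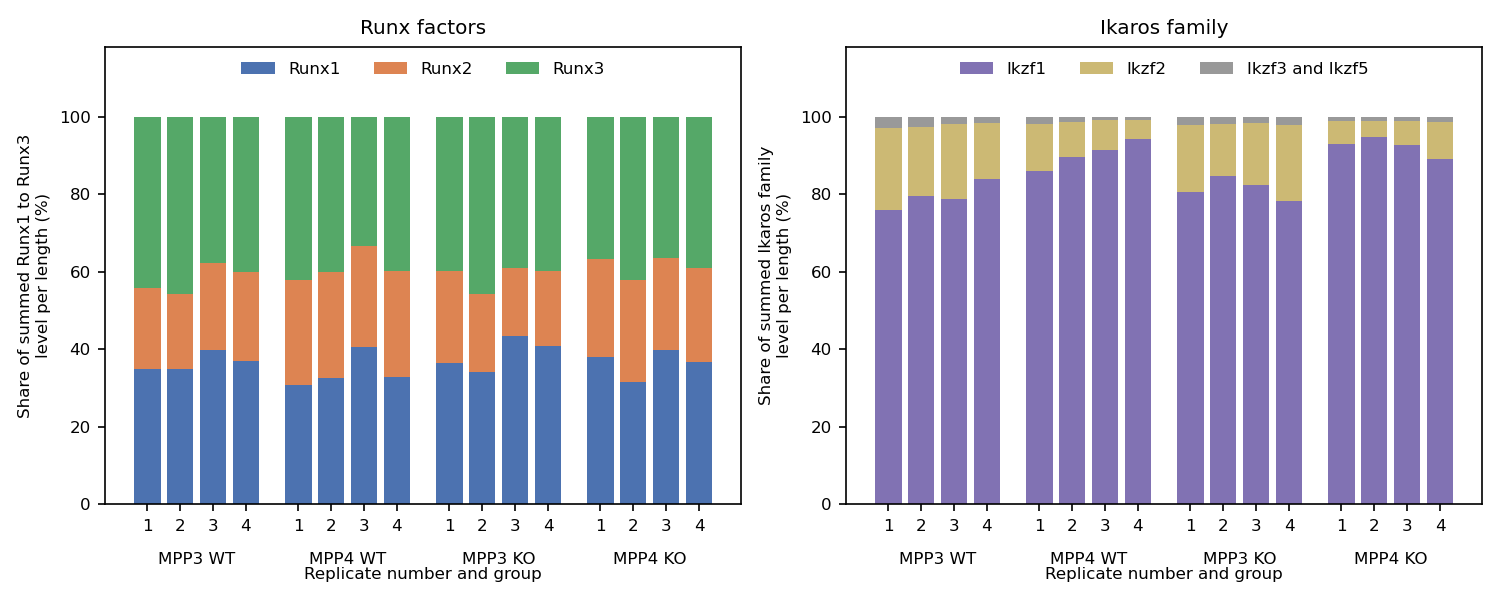
Stacked bars giving, for each library, the percent of the summed level per length taken by each of Runx1, Runx2 and Runx3 (left) and by each Ikaros family gene (right). The Ikzf2 share is 13.4% to 21.2% in MPP3 and 4.07% to 12.3% in MPP4, while the Runx2 share is 17.6% to 23.9% in MPP3 and 23.6% to 27.6% in MPP4.

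Bcl11a (ENSMUSG00000000861, chromosome 11, 24078056 to 24174123, plus strand) had the smallest p-value of the members for the population difference in the fit without the mouse, and Ikzf1 had the smallest with the mouse as a block (edgeR FDR 9.47e-07 in WT and 3.80e-07 in KO). It was at 131, 140, 125 and 119 CPM in MPP3 WT and at 232, 189, 198 and 188 CPM in MPP4 WT. The KO libraries held 124, 109, 101 and 112 CPM in MPP3 and 185, 161, 177 and 187 CPM in MPP4. Every MPP4 library was above every MPP3 library, in both genotypes. The log2 fold change of MPP3 over MPP4 was -0.65 ± 0.08 in WT (edgeR FDR 4.99e-05) and -0.68 ± 0.08 in KO (FDR 2.89e-05), and both calls held without any 1 library.

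Among the Runx factors only Runx2 (ENSMUSG00000039153, chromosome 17, 44495987 to 44814797, minus strand), known best for bone formation and also expressed in plasmacytoid dendritic cells, was called. It was at 63.1, 65.8, 74.1 and 78.2 CPM in MPP3 WT and at 79.4, 86.9, 89.9 and 90.3 CPM in MPP4 WT. In KO it was at 74.5, 59.4, 57.2 and 57.0 CPM in MPP3 and at 75.4 to 77.4 CPM in MPP4. Of the dendritic cell genes given above, Flt3, Ccr9, Itgax and Siglech had higher means in MPP4 in both genotypes, and Xcr1 and Cd209a were nearly alike in WT. Siglech means were 0.407 CPM in MPP3 and 0.999 CPM in MPP4 in WT, and 0.131 and 2.63 CPM in KO. The part of these genes in the levels of Bcl11a or Runx2 was not tested. The Runx2 groups were apart in both genotypes, though in KO only narrowly through mouse KO1, whose 2 libraries differed by -0.018 on the log2 scale. The log2 fold changes of MPP3 over MPP4 were -0.30 ± 0.09 in WT (edgeR FDR 0.0438) and -0.30 ± 0.09 in KO (FDR 0.0357). These were the least stable of the calls: the FDR rose to between 0.110 and 0.123 without MPP3 WT replicate 1 or 2, MPP4 WT replicate 3 or 4, or, for KO, MPP3 KO replicate 3 or 4.

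Runx1 (ENSMUSG00000022952, chromosome 16, 92601466 to 92826149, minus strand), the regulator that establishes blood stem cells in the embryo, ranged from 137 to 192 CPM in MPP3 and from 124 to 192 CPM in MPP4. Runx3 (ENSMUSG00000070691, chromosome 4, 135120652 to 135177990, plus strand), known from cytotoxic T cells, ranged from 66.5 to 87.9 CPM and from 61.8 to 75.0 CPM. Their groups overlapped in both genotypes. For Runx1 the log2 fold change of MPP3 over MPP4 was 0.11 ± 0.13 in WT (95% interval -0.18 to 0.39) and 0.07 ± 0.13 in KO (-0.21 to 0.36). For Runx3 the intervals were narrower, -0.04 to 0.30 in WT and -0.09 to 0.24 in KO. Neither gene passed the test in either genotype.

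Cbfb (ENSMUSG00000031885, chromosome 8, 105170674 to 105217989, plus strand) was the most variable of the tested members. It was at 32.9, 102, 119 and 141 CPM in MPP3 WT and at 47.8, 66.2, 138 and 152 CPM in MPP4 WT. The KO libraries held 147, 136, 129 and 82.1 CPM in MPP3 and 161, 159, 173 and 98.2 CPM in MPP4. It was lower in MPP3 than in MPP4 in 7 of 8 mice, the exception being WT2. The log2 fold changes of -0.03 ± 0.39 in WT and -0.26 ± 0.39 in KO did not pass the test (edgeR FDR 0.980 and 0.760). Within the 4 KO mice the log2 ratio of MPP3 to MPP4 was -0.43 to -0.13, and with the mouse as a block the KO value was -0.26 ± 0.13 (edgeR FDR 0.175). It was called when WT1 and WT2 were also left out (edgeR FDR 0.0077), in a fit where 31.1% of all genes were called. Per length, Cbfb stood at 0.278 to 1.16 times the sum of its 3 Runx partners in the WT libraries and at 0.707 to 1.37 times in the KO libraries.

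Myb (ENSMUSG00000019982, chromosome 10, 21124935 to 21160984, minus strand) was at 150, 265, 322 and 395 CPM in MPP3 WT and at 126, 156, 290 and 287 CPM in MPP4 WT. In KO it was at 386, 368, 428 and 304 CPM in MPP3 and at 315, 335, 355 and 236 CPM in MPP4. The groups overlapped, yet MPP3 was higher than MPP4 in 8 of 8 mice, by 0.13 to 0.76 on the log2 scale. Without the mouse in the fit the log2 fold changes were 0.40 ± 0.27 in WT (edgeR FDR 0.453) and 0.26 ± 0.27 in KO (FDR 0.635). With the mouse as a block, they were 0.41 ± 0.08 (FDR 0.00252) and 0.27 ± 0.08 (FDR 0.0277), so the call for Myb rests on the pairing of libraries within animals. The other members' calls were the same with the block.

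The comparison of KO with WT asked whether these regulators change when Ebf1 is targeted. No member was called in MPP3 or in MPP4 by edgeR, where 0.0676% and 0.0169% of all genes were called, nor by DESeq2, where 1.82% and 2.58% were. At an unadjusted p under 0.05, Bcl11a was the 1 member in each population, against 10.5% of all genes in MPP3 and 12.8% in MPP4. With sex as a term, 2 members in MPP3 and 4 in MPP4 had such an edgeR p, as did 1520 and 1912 of the 11831 genes. In that fit 58 and 183 genes were called, and no member was among them. Bcl11a was lower in KO by a log2 fold change of -0.21 ± 0.08 in MPP3 (edgeR FDR 0.388) and -0.18 ± 0.08 in MPP4 (FDR 0.365). In MPP4 the KO libraries of Bcl11a (161 to 187 CPM) all lay below the WT libraries (188 to 232 CPM), as did those of Runx2 (75.4 to 77.4 against 79.4 to 90.3 CPM). These were 2 of the 9 tested members, against 4.44% of all genes. The median log2 fold change of the 9 was -0.0085 in MPP3 and 0.014 in MPP4, against -0.0055 and -0.013 over all genes. Runx2 had a log2 fold change of -0.18 ± 0.09 in both populations (edgeR FDR 0.522 in MPP3 and 0.431 in MPP4).

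The intervals show which sizes of KO effect were still possible. For Ikzf1 the 95% interval of the log2 fold change was -0.35 to 0.35 (MPP3) and -0.31 to 0.40 (MPP4). For Runx1 it was -0.29 to 0.28 and -0.26 to 0.31, and for Runx3 -0.29 to 0.05 and -0.24 to 0.10, in the same order. Ikzf2 was lower in KO by -0.16 ± 0.19 and -0.33 ± 0.20, and Ikzf5 had log2 fold changes of -0.01 ± 0.20 and 0.01 ± 0.20, all uncalled (edgeR FDR of 0.497 or more). The widest intervals belonged to Cbfb (-0.50 to 1.14 in MPP3, -0.27 to 1.37 in MPP4) and Myb (-0.19 to 0.97 and -0.05 to 1.11). The difference between the KO effects in the 2 populations was tested directly and called for no member by edgeR or DESeq2 (0% and 0.0676% of all genes). No member had an unadjusted edgeR p under 0.05 either (2.28% of all genes), the differences lying between -0.23 for Cbfb and 0.17 for Ikzf2.

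**Figure D4:**
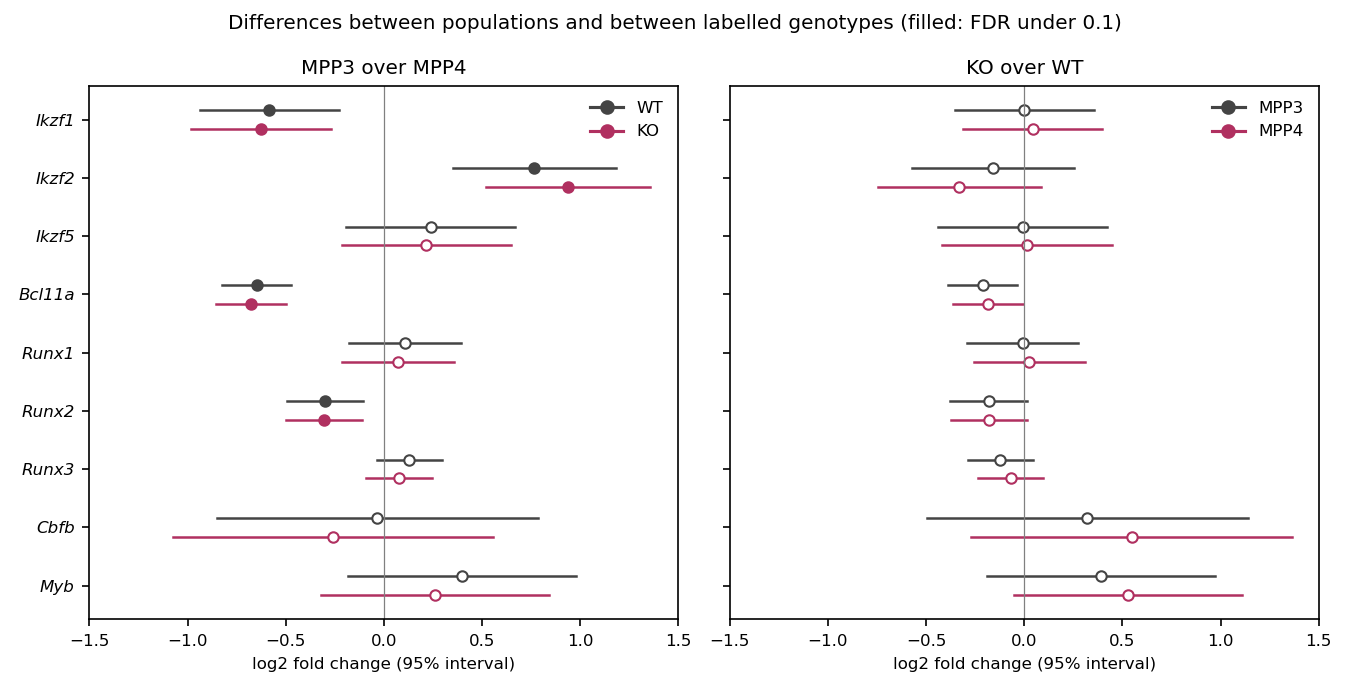
Log2 fold changes of the 9 tested members with 95% intervals, MPP3 over MPP4 on the left (WT grey, KO red) and KO over WT on the right (MPP3 grey, MPP4 red). Filled points passed FDR under 0.1, which on the left are Ikzf1, Ikzf2, Bcl11a and Runx2 in both genotypes and on the right none.

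The low end of Cbfb and Myb was held mainly by mice WT1 and WT2. WT1 had the lowest Cbfb, Myb and Ikzf1 of the 8 libraries in MPP3 and in MPP4, and WT2 had the second lowest Myb in both and the second lowest Cbfb in MPP4. WT2 was not low throughout: in MPP3 its Cbfb was the third lowest, above KO4, and its Ikzf1 was the fourth lowest in both populations. A fit without these 2 mice, made after their values were seen, left only WT3 and WT4 in WT. Because the mice were picked for low Cbfb and Myb, smaller KO effects on these genes follow from the choice and are no test. A call lost in this fit cannot be told apart from an effect of the smaller WT group. The KO effect on Cbfb moved to -0.08 in MPP3, where it had been 0.32, and to 0.03 in MPP4, where it had been 0.55. For Myb it moved from 0.39 to 0.05 and from 0.53 to 0.10, for Ikzf1 from 0.00064 to -0.18 and from 0.04 to -0.16, and for Bcl11a from -0.21 to -0.14 and from -0.18 to -0.12. The effect on Runx2 moved from -0.18 to -0.30 in MPP3 and -0.24 in MPP4, both uncalled (edgeR FDR 0.722 and 0.412), and that on Ikzf2 moved from -0.16 to -0.24 and from -0.33 to -0.14. The WT call of Runx2 between populations was also lost (edgeR FDR 0.330), while those of Ikzf1, Ikzf2 and Bcl11a remained. WT1 and WT2 were the 2 female WT mice, so sex and these animals cannot be told apart within WT. The female KO mice went both ways. KO3 had Cbfb at 129 CPM in MPP3 and at 173 CPM in MPP4, the highest of the 8 there, and the highest Myb in both populations, while KO4 had Cbfb at 82.1 and 98.2 CPM.

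Other transcripts moved with these mice in part. The 8 plasma cell genes summed to 760 and 695 CPM in the MPP3 libraries of WT1 and WT2 and to 180 to 404 CPM in the other 6. In MPP3 WT this sum was mainly Igkc, Xbp1 and Jchain. A list of 12 immediate early genes such as Fos and Egr1, transcripts that cells induce rapidly on stimulation, was chosen after its values were seen. It summed to 1017 and 1831 CPM in MPP3 of WT1 and WT2 and to 8311 and 5303 CPM in WT3 and WT4. In MPP3 of KO2 the sum was 684 CPM with Cbfb at 136 CPM, and in MPP3 of KO4 it was 1220 CPM with Cbfb at 82.1 CPM, the second lowest of the 8. Within each mouse the 2 populations had like sums, as in WT1 with 962 CPM and KO2 with 637 CPM in MPP4. The part of these transcripts in the levels of the members was not tested.

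The closest relatives and cofactors of the members were read as a list of 14 genes, of which 10 passed the filter. Zbtb16 (PLZF), a zinc finger factor of innate lymphoid precursors and stem cells, was the 1 gene called higher in MPP3 in each genotype, against 6.80% of all genes in WT and 8.71% in KO, so 1 of 10 is near the background. It was at 12.4 to 24.7 CPM in MPP3 WT and 0.144 to 1.66 CPM in MPP4 WT, and higher in MPP3 by 4.07 ± 0.51 in WT (edgeR FDR 3.89e-05) and 3.08 ± 0.49 in KO (FDR 0.00031). The median log2 fold change of the 10 was 0.15 in WT, against -0.00039 over all genes. Bcl11b, the T cell paralog of Bcl11a, was below the filter with at most 152 counts, and Ikzf4 (Eos) with at most 44. None of the list was called in KO against WT (0.0676% of all genes in MPP3 and 0.0169% in MPP4). Gfi1, a transcriptional repressor needed for neutrophil differentiation, had the smallest p-values, with log2 fold changes of 0.93 ± 0.36 in MPP3 (edgeR FDR 0.364) and 0.83 ± 0.36 in MPP4 (FDR 0.336).

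Genes that factors of these families are known to regulate, or that mark the lineages they act in, were read as a second list of 14, of which 13 were tested and Igll1 fell below the filter. Between MPP3 and MPP4 in WT, 2 were higher in MPP3 (6.80% of all genes) and 9 lower (8.33%), with a median log2 fold change of -0.61. In KO 2 were higher (8.71% of all genes) and 8 lower (9.18%), with a median of -0.83 against -0.0079 over all genes. The lymphoid genes were lower in MPP3: Dntt, the terminal transferase, stood at 36.2 to 55.8 CPM in MPP3 WT and 1132 to 1392 CPM in MPP4 WT (log2 fold change -4.78 ± 0.23, edgeR FDR 8.08e-10). Rag1 and Rag2, the V(D)J recombinase, followed with -3.60 ± 0.75 and -3.28 ± 0.35, Il7r with -2.71 ± 0.36 and Notch1 with -2.05 ± 0.20 (edgeR FDR of 0.00369 or less in WT). Flt3, a sort marker and so no finding, was lower by the gate. The survival gene Bcl2 (-0.61 ± 0.10) and the macrophage receptor gene Csf1r (-0.60 ± 0.20) were also lower in MPP3. The WT call of Csf1r was lost without mice WT1 and WT2 (edgeR FDR 0.223) and without any 1 of MPP3 WT replicates 1 to 3 or MPP4 WT replicates 3 and 4 (0.114 to 0.168). Cd34 was near the threshold, at -0.13 ± 0.05 in WT (edgeR FDR 0.0966) and -0.09 ± 0.05 in KO (FDR 0.251), and omitting single libraries ended its WT call in 12 of 16 cases. The granule gene Mpo (1.69 ± 0.23) was higher in MPP3, as was the receptor gene Kit (0.51 ± 0.07), which like Flt3 is a sort marker. Spi1 (PU.1) and Myc were called in neither genotype, with log2 fold changes between -0.03 and 0.12.

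For KO against WT, 1 of these 13 genes was called: Kit was lower in MPP4 KO (381 to 431 CPM) than in MPP4 WT (498 to 578 CPM), by a log2 fold change of -0.42 ± 0.07 (edgeR FDR 0.0560), where 0.0169% of all genes were called. Kit is itself a marker of the sort gate. The call was lost with age as a term (edgeR FDR 0.259), with the replicate block (0.164), without mice WT1 and WT2 (0.122), and without MPP3 KO replicate 2 (0.107), MPP4 WT replicate 1 (0.112) or 3 (0.285), or MPP4 KO replicate 1 (0.187) or 2 (0.229). Csf1r was closest to the threshold among the others, at 26.9 to 37.6 CPM in MPP4 WT and 49.4 to 85.5 CPM in MPP4 KO (log2 fold change 0.98 ± 0.20, edgeR FDR 0.110). In MPP3 its log2 fold change was 0.75 ± 0.20 (FDR 0.171). The medians of the list for KO over WT were -0.06 in MPP3 and 0.07 in MPP4, against -0.0055 and -0.013 over all genes. Among the other sort markers, Flt3, Ly6a and Cd48 had log2 fold changes of -0.28 ± 0.10, 0.44 ± 0.13 and 0.30 ± 0.10 in MPP4. These were all uncalled (edgeR FDR of 0.193 or more).

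**Figure D5:**
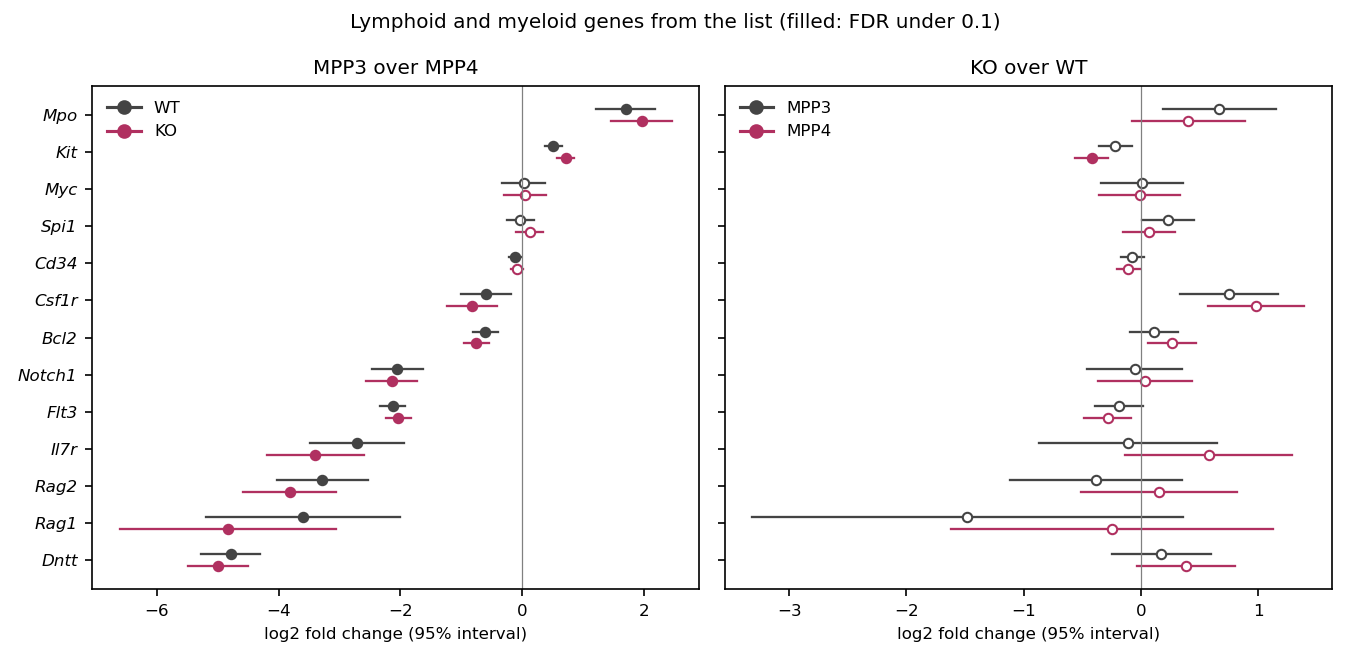
Log2 fold changes with 95% intervals of the 13 tested genes of the list, MPP3 over MPP4 on the left (WT grey, KO red) and KO over WT on the right (MPP3 grey, MPP4 red), with filled points at FDR under 0.1. Dntt, Rag1, Rag2 and Il7r lie far to the left in the population comparison, and Kit in MPP4 is the 1 filled point for genotype.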

How the data were processed

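Polyadenylated RNA of sorted cells was sequenced, and the authors aligned the reads to mm10 with STAR 2.7.3a and counted them with featureCounts 2.0.0. The authors deposited raw read counts per gene for each population, the only values used, and a table of normalised values with DESeq2 1.28.1 size factors, not used here. Whether strand was used in counting is not given in the sources used here. Symbols, positions and exon lengths came from GENCODE M21 (GRCm38), which held 47310 of 47937 identifiers. Promoter windows came from RefSeq. No file column was without a sample, and no library was identical to another.

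The 11831 genes whose mean count exceeded 100 in at least 1 group were fitted over all 16 libraries in edgeR 4.0.16 (R 4.3.3) with TMM scaling, 1 mean per group and the quasi-likelihood F-test. FDR values (Benjamini-Hochberg) were taken over all of them, with calls under 0.1. DESeq2 1.42.0 was an alternative. Other alternatives were size-factor scaling, other filters, sex or age as a term, each library left out, and mice WT1 and WT2 left out. The last was chosen after seeing the data and leaves only WT3 and WT4 in WT. The fits were tested on simulated data. Log2 fold changes carry standard errors, and levels are TMM-scaled CPM. Libraries of 1 mouse deviated together (r from 0.269 to 0.548, and every MPP3 library matched its own mouse best), so the mouse was used as a block in an alternative. Replicates were separate mice. All 10 members were described, with relatives and pathway genes given values where called. Members and lists were chosen with earlier results of these data known, and genes named outside them were chosen after their values were seen.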

Additional observations from a re-analysis of the deposited data

Results flagged for a closer look

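Among 39 sets of 4 libraries (a member in a group), 2 held a library that stood far from the other 3, by Dixon's test of the gap to the nearest over the whole range. Chance flags about 1 set in 20, so 2 of 39 is no more than that. Ikzf3 in MPP4 WT replicate 1 was at 0.614 CPM (26 counts), and the other 3 were between 0 and 0.0677 CPM. Runx2 in MPP3 KO replicate 1 was at 74.5 CPM, and the other 3 were between 57.0 and 59.4 CPM.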

How the results depend on the processing

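The number of members called was 0 for KO against WT and for the difference of KO effects under every alternative run, and 4 in each genotype between populations, where it ranged from 2 (without MPP4 WT replicate 4) to 4 in WT when 1 library was left out. Of the alternative values of these counts, 131 equalled the reported one or stayed within 1.5 times it, and 1 did not. The 131 include every count of 0 that stayed at 0, for KO against WT and for the difference of KO effects. They also include a count of 6 against 4, which lies on the limit. These counts cover the 9 members tested. Ikzf3 entered only the fits with looser filters, where it was called higher in MPP3 in KO (edgeR FDR 0.00897 with all genes and 0.0104 with filterByExpr). Both calls rest on an MPP4 KO group with no count. In these fits 936 of 26699 and 1072 of 16738 genes were called higher in MPP3 in KO. Among the other values of these 9 members, 886 alternatives kept direction and side of the threshold, 9 lost a call, 5 gained one and 43 changed sign, all of the last uncalled. Runx2 lost its WT call between populations without mice WT1 and WT2 (edgeR FDR 0.330, and 0.175 with the mouse block as well). The mouse block gave 5 members in each genotype. With WT1 and WT2 also left out it gave 6 in KO, where 31.1% of all genes were called and Cbfb joined at -0.256 (edgeR FDR 0.0077). For KO against WT the same numbers mark different mice (r from -0.464 to 0.127), and that replicate block called 0 members.

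Sign changes for KO against WT in MPP3 were as follows. With age as a term Ikzf1 was at -0.131, Ikzf2 at 0.166 and Runx1 at 0.173. Without mice WT1 and WT2, Ikzf1 was at -0.184, Ikzf5 at 0.214 and Cbfb at -0.0766. Ikzf5 was at 0.00332 by DESeq2, 0.00171 with all genes, 0.0087 with the filterByExpr filter and 0.00755 with sex as a term, and Runx1 at 0.00225 with all genes and 0.00756 with filterByExpr. In MPP4, age put Ikzf1 at -0.0845 and Ikzf5 at -0.00461, and leaving out WT1 and WT2 put Ikzf1 at -0.158 and Runx1 at -0.149. Between populations in WT, sex put Cbfb at 0.0117. Leaving out 1 library at a time, the KO effect in MPP3 spanned -0.132 to 0.093 for Ikzf1, -0.118 to 0.116 for Ikzf5 and -0.102 to 0.0621 for Runx1. In MPP4 it spanned -0.103 to 0.147, -0.0439 to 0.105 and -0.0575 to 0.165 for the same genes. The population difference spanned -0.267 to 0.256 for Cbfb in WT and -0.0213 to 0.149 for Runx1 in KO. The cause of these changes was not tested. P-values of the main fit treat the 16 libraries as independent, although each mouse gave 1 library of each population. With the mouse as a block, the p-values between populations measure the spread of differences within mice. Ikzf3 is limited by its counts.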
